A study of Mus musculus with 2 samples.

Results

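Fibroblast growth factor (FGF) signalling genes were followed in polyadenylated RNA from limb tissue of mouse embryos. The set holds 37 genes taken by name: 22 FGF genes, 5 receptor genes, and 10 genes whose products limit or report FGF signalling. Rows under 36 of these names were found in both gene tables, among 43346 gene rows of which 21474 are protein-coding; Spry3 was not analysed here. The samples form 1 group of 2 libraries from C57BL/6J embryos at embryonic day 14.5, each a pool of littermates of both sexes. The labels name no altered gene and no treatment, do not say which limbs were taken, and give both pools the same donor identifier with separate biosample identifiers. The libraries are therefore called replicate 1 and replicate 2, and every SD below covers the spread between this pair of samples alone, some of which may be technical. Since there is no second condition, the results are levels, the order of levels, the makeup of the receptor transcripts, and the difference between the libraries; an exact permutation test of 2 values against 2 cannot give a two-sided p below 0.333, so no p is given.

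FGFs are signalling proteins that, apart from the intracellular homologous factors Fgf11 to Fgf14, are secreted and bind receptor tyrosine kinases on neighbouring cells with heparan sulfate as a partner. The active receptor signals through the adaptor Frs2 and the Ras to ERK kinases, and this signal switches on its own brakes, among them the Sprouty and Spred proteins and the phosphatase Dusp6, together with the ETS transcription factors Etv4 and Etv5. In the limb, ectodermal FGFs of the apical ridge and mesenchymal Fgf10 sustain outgrowth of the early bud, and later Fgf18, Fgf9 and the receptor Fgfr3 act on cartilage and bone.

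Which ligands a receptor binds depends on the third immunoglobulin-like loop of its extracellular part. In Fgfr1, Fgfr2 and Fgfr3 the end of this loop is encoded by either of a pair of exons, IIIb or IIIc, of which IIIb is known from epithelia and IIIc from mesenchyme. The transcript analysis turns on these exons, and the pair of Fgfr3 is shown here as given by the GENCODE M21 transcripts (GRCm38). Capitals mark the bases that are identical in the other exon of the pair after global alignment.

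Fgfr3 IIIb, chr5:33731281-33731431, plus strand: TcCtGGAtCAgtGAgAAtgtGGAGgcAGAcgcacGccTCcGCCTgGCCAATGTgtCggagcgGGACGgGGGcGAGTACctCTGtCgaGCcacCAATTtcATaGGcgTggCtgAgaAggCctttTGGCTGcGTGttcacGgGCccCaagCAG
Fgfr3 IIIc, chr5:33732117-33732261, plus strand: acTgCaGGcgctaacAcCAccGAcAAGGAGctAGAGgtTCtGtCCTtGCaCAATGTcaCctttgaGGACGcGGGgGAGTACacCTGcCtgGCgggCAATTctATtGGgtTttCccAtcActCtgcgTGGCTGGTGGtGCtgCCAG

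The 2 exons of Fgfr3 are 151 and 145 nucleotides long and shared 51.9% of alignment positions. The capitals run along the whole of each exon in short stretches.

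Gene rows held 110172148 estimated counts in replicate 1 and 103363136 in replicate 2, and the FGF genes took 0.147% and 0.175% of them. Levels are given in TPM, transcript abundance scaled to transcript length and library depth, a scale on which genes of 1 library can be compared. Genes listed here as markers of limb mesenchyme, cartilage, muscle, epidermis, apical ridge, tendon, bone, endothelium, blood, and nerve were all at 1 TPM or more in both libraries. Those listed for the apical ridge were Sp6, Sp8, Wnt3, En1 and Rspo2, and their levels alone do not show that ridge was present. Of 5 genes that a limb should lack, Afp (19.6 and 23.6 TPM) and Alb (5.70 and 1.10 TPM) of liver were above 1 TPM in both libraries, and the heart, lung and neuron genes were below it. In a whole tissue, fewer cells that express a gene and less RNA of it per cell cannot be told apart.

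The receptors and feedback genes were high and the ligands low. At 1 TPM or more in both libraries stood 23 of the 36 genes (63.9%), against 62.8% of protein-coding gene rows. By role these were 6 of 18 secreted ligands, 3 of 4 intracellular factors, 5 of 5 receptors and 9 of 9 feedback genes. The median of the 36 genes was 8.44 TPM and that of protein-coding rows 5.84 TPM. Summed over their genes, the secreted ligands came to 50.7 and 45.8 TPM in replicates 1 and 2, the intracellular factors to 27.7 and 26.0 TPM, the feedback genes to 238 and 292 TPM, and the receptors to 465 and 581 TPM.

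**Figure D1:**
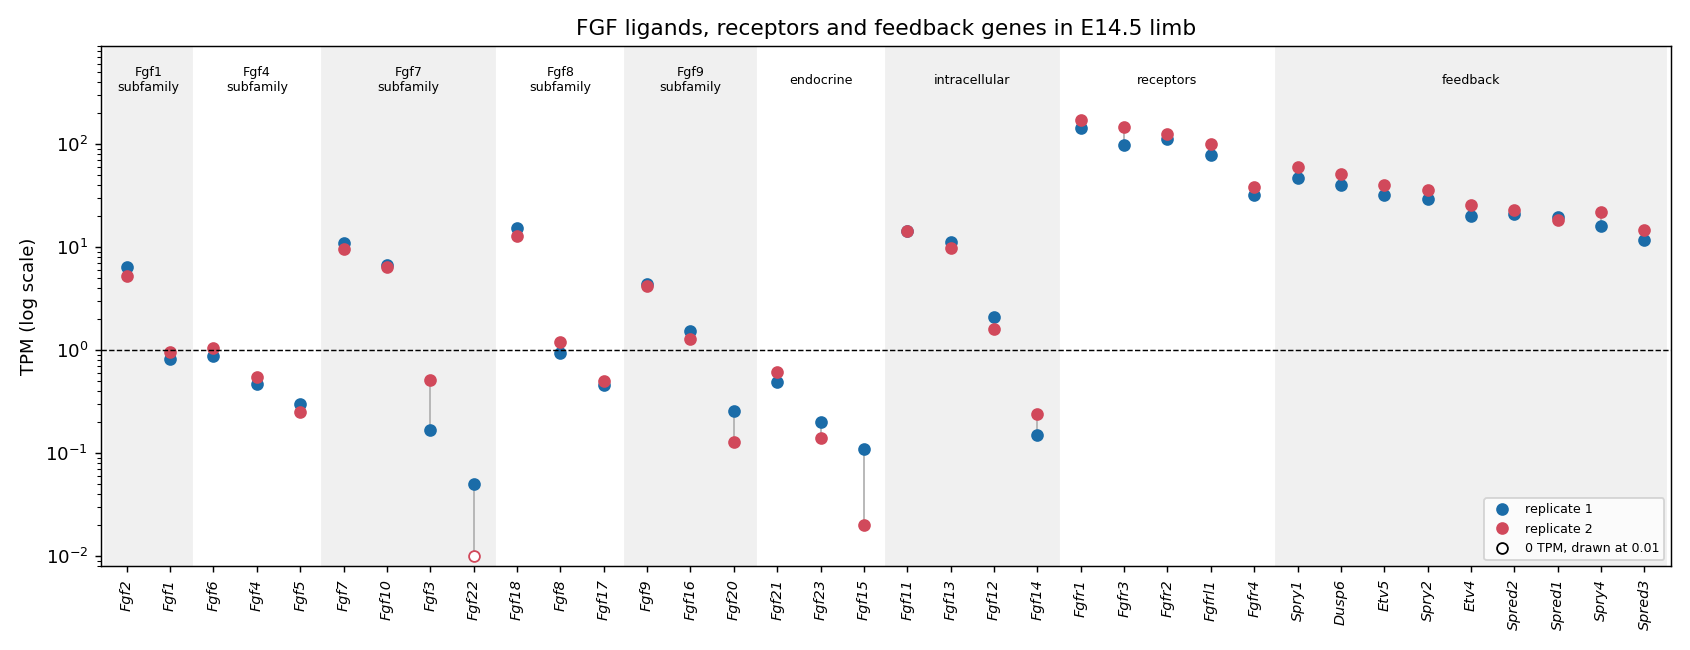
TPM on a log scale of each of the 36 genes in replicate 1 (blue) and replicate 2 (red), grouped by role, with a dashed line at 1 TPM and a grey line joining the libraries. All 5 receptors and 9 feedback genes lie above 10 TPM in both libraries, and no secreted ligand exceeds 15.4 TPM; Fgf22, at 0 TPM in replicate 2, is drawn at 0.01.

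Among secreted ligands, genes of the Fgf7 and Fgf8 subfamilies made up most of the level. The Fgf7 subfamily took 35.8% ± 0.664 of the summed ligand TPM (SD, n = 2) and the Fgf8 subfamily 32.5% ± 0.873. The Fgf1 subfamily took 14.1% ± 0.513, the Fgf9 subfamily 12.3% ± 0.107, the Fgf4 subfamily 3.66% ± 0.542 and the endocrine ligands 1.63% ± 0.0732. Because TPM divides by transcript length, the split depends on the scale: by estimated counts the Fgf7 subfamily took 53.1% and the Fgf8 subfamily 18.6%. It also depends on Fgf7-203, a transcript without coding sequence at 5.47 and 6.51 TPM, in the Fgf7 subfamily sum of 17.9 and 16.6 TPM. Without this transcript the Fgf7 subfamily would fall below the Fgf8 subfamily, which summed to 16.8 and 14.6 TPM.

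Fgf18, a ligand of the Fgf8 subfamily that acts on growing cartilage and bone (chr11:33117430-33147400, minus strand), was the highest secreted ligand by TPM, at 15.4 TPM in replicate 1 and 12.9 TPM in replicate 2. By counts it was not: Fgf10 had 1957 and 1751 against 1020 and 772 for Fgf18, and Fgf7 had 1182 in replicate 1. Fgf8 itself, the ligand that ridge ectoderm secretes throughout bud outgrowth (chr19:45736798-45742915, minus strand), stood at 0.95 and 1.20 TPM from 49 and 55 counts. Fgf17, a further ridge ligand, was at 0.46 and 0.50 TPM. Within this subfamily the level was thus nearly all Fgf18.

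In the Fgf7 subfamily, whose ligands mesenchyme is known to send to epithelium, Fgf7 and Fgf10 carried the level. Fgf7 (chr2:126034658-126091185, plus strand) was at 11.0 and 9.62 TPM, from 1182 and 768 counts. Part of this came from Fgf7-203, annotated as a processed transcript without coding sequence, at 5.47 and 6.51 TPM. The coding transcripts of Fgf7 summed to 5.53 and 3.11 TPM. Fgf10, the ligand that starts the limb bud (chr13:118669791-118792115, plus strand), was at 6.66 and 6.45 TPM, all of it from coding transcripts and from 1957 and 1751 counts. Fgf10 was 0.637 times Fgf7 by gene TPM, a difference smaller than the 2.03-fold that 95% of genes between 1 and 10 TPM stayed within when the libraries were compared, and it lay above the coding transcripts of Fgf7 in both libraries. Fgf3 and Fgf22 were under 1 TPM. Fgf3 was at 0.17 and 0.52 TPM on 24 and 22 counts, with an effective length in the tables of 1907 nucleotides in replicate 1 and 605 in replicate 2, so its counts hardly differed where its TPM did.

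Of the Fgf9 subfamily, Fgf9, known from ridge and from developing muscle and cartilage (chr14:58070547-58112720, plus strand), was at 4.41 and 4.24 TPM. Fgf16 was at 1.53 and 1.30 TPM and Fgf20, which overlaps Micu3 (5.80 and 6.13 TPM) on the opposite strand by 874 bases, at 0.26 and 0.13 TPM. Fgf18 exceeded Fgf9 by 3.26-fold (log2 ratio 1.70 ± 0.14, SD, n = 2) and Fgf9 exceeded Fgf8 by 4.05-fold (log2 ratio 2.02 ± 0.28). Both differences, by TPM, were past the 2.03-fold spread of genes at that level in either library. By counts scaled to library size, which ignore transcript length, Fgf18 exceeded Fgf9 by less than that spread (log2 ratio 0.58). On that scale Fgf9 exceeded Fgf8 by more (log2 ratio 3.52).

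Fgf2 and Fgf1, ligands without a classical secretion signal, differed in level. Fgf2 (chr3:37348346-37405377, plus strand) was at 6.49 and 5.32 TPM and Fgf1 at 0.83 and 0.96 TPM, so Fgf1 reached 0.152 times the level of Fgf2 (log2 ratio -2.72 ± 0.35, SD, n = 2). This was past the 4.33-fold spread of genes between 0.1 and 1 TPM. By counts the order was the same but the gap smaller, at 229 and 175 for Fgf1 and 308 and 246 for Fgf2, whose main transcript is listed as short. Fgf2 overlaps Nudt6 on the opposite strand by 468 bases, with Nudt6 at 5.70 and 7.23 TPM. The libraries are stranded, but no source used here gives the strand setting of the counting.

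In the Fgf4 subfamily, none of Fgf4, Fgf5 and Fgf6 reached 1 TPM in both libraries, and Fgf6 was nearest to it. Fgf6, known from muscle, was at 0.89 and 1.05 TPM, Fgf4, a ridge ligand, at 0.47 and 0.55 TPM, and Fgf5 at 0.30 and 0.25 TPM. The endocrine ligands, which act at a distance with Klotho co-receptors, were all below 1 TPM. Fgf21 was at 0.49 and 0.61 TPM, Fgf23 at 0.20 and 0.14 TPM and Fgf15 at 0.11 and 0.02 TPM. For Fgf15 these rest on 13 and 2 counts, with exact Poisson 95% intervals of 6.92 to 22.2 and 0.242 to 7.22 that cover counting error only. The lowest of all was Fgf22, with 1 count in replicate 1 and 0 in replicate 2, where 0 counts allow up to 3 counts or 0.0290 CPM (counts scaled to library size).

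**Figure D2:**
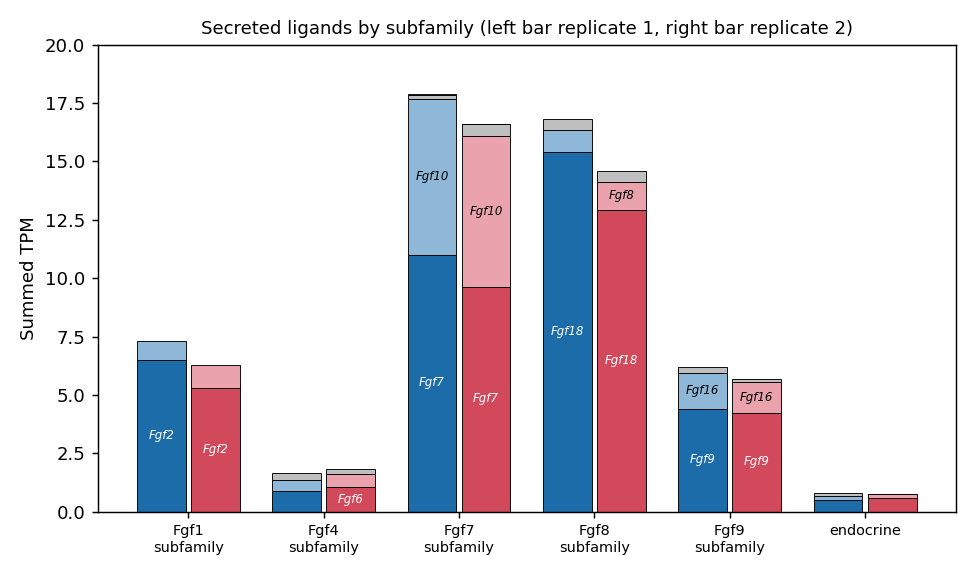
Summed TPM of the secreted ligands in each subfamily, stacked by gene, with the left bar for replicate 1 and the right bar for replicate 2. The Fgf7 bars reach 17.9 and 16.6 TPM and are split between Fgf7 and Fgf10, and the Fgf8 bars reach 16.8 and 14.6 TPM and are mostly Fgf18.

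Several of the low ligand genes lie next to each other. On chromosome 7, Fgf3, Fgf4 and Fgf15 follow each other with gaps of 16.9 kb and 31.3 kb and no protein-coding gene between them, and all 3 were under 1 TPM. On chromosome 6, Fgf6 and Fgf23 lie 44.7 kb apart, at 0.89 and 1.05 TPM and at 0.20 and 0.14 TPM. Fgf2 and Spry1 lie 234.6 kb apart on chromosome 3, with 1 protein-coding gene between them and a much higher level of Spry1 (47.5 and 60.5 TPM) than of Fgf2.

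The intracellular homologous factors bind sodium channels and other proteins inside the cell and do not act as secreted ligands. Of these, Fgf11 and Fgf13 reached levels like those of the main ligands, and Fgf12 and Fgf14 were lower. Fgf11 (chr11:69796068-69801857, minus strand) was at 14.3 TPM in both libraries. Fgf13, known from neurons and also present in other tissues, was at 11.1 and 9.80 TPM. Fgf12 was at 2.09 and 1.62 TPM and Fgf14 at 0.15 and 0.24 TPM. Fgf13 exceeded Fgf12 by 5.68-fold, past the 2.03-fold spread, and was 0.730 times Fgf11, within the 1.59-fold spread of genes between 10 and 100 TPM. The neuron and glia markers Sox10 (16.4 and 21.7 TPM) and Tubb3 (10.4 and 8.41 TPM) were present in the same libraries. Whether they share cells with Fgf11 and Fgf13 was not tested.

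All 4 tyrosine kinase receptors and the receptor-like Fgfrl1 were present, and Fgfr1 was the highest of the 36 genes in both libraries. Fgfr1 (chr8:25513654-25575718, plus strand) was at 142 TPM in replicate 1 and 170.4 TPM in replicate 2, from 37458 and 41802 counts. Its mean of 156 ± 19.8 TPM (SD, n = 2) was above that of 96.3% of protein-coding rows. Fgfr2 (chr7:130162451-130266263 without the long transcript described below, minus strand) was at 113 and 126 TPM, and Fgfr3, the receptor that restrains cartilage growth (chr5:33721724-33737068, plus strand), was at 98.6 and 146 TPM. With the long transcript counted in the level of Fgfr2, the order of Fgfr2 and Fgfr3 was reversed between the libraries. Fgfr1 was 1.30 times Fgfr2 (log2 ratio 0.38 ± 0.08, SD, n = 2), within the 1.79-fold spread of genes above 100 TPM.

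Fgfrl1, a receptor-like protein without a kinase domain (chr5:108694268-108706924, plus strand), was at 78.0 and 99.8 TPM. It was 0.738 times Fgfr2, within the spread. Fgfr4, known from developing muscle (chr13:55152640-55168759, plus strand), was the lowest at 32.3 and 38.7 TPM. Fgfr3 exceeded it by 3.40-fold (log2 ratio 1.76 ± 0.22), past the 1.59-fold spread. In the same libraries the 5 muscle markers summed to 1575 and 1494 TPM. Of these the regulators Myod1 and Myog were at 67.0 and 91.2 TPM and at 137 and 132 TPM, Actc1 at 1117 and 1147 TPM, and the contractile genes Myh3 and Tnnt3 at 159 and 91.5 TPM and at 93.9 and 32.0 TPM. The 5 cartilage markers summed to 2139 and 2498 TPM, and 4 of them were higher in replicate 2, Col9a1 being lower (223 and 206 TPM).

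Of the summed TPM of Fgfr1 to Fgfr4, Fgfr1 made up 36.1% ± 0.991 (SD, n = 2), Fgfr2 27.8% ± 2.22, Fgfr3 27.9% ± 3.44 and Fgfr4 8.19% ± 0.228. A part of each of these levels came from transcripts not annotated as protein-coding. Transcripts annotated as protein-coding supplied 73.2% and 68.4% of the TPM of Fgfr1, 62.5% and 65.3% of Fgfr2, 60.4% and 52.2% of Fgfr3 and 66.8% and 71.7% of Fgfr4, and 100% in Fgfrl1. With these transcripts alone the share of Fgfr1 was 39.6% ± 1.54. All these shares count Fgfr2-217, described below, which supplied 34.1 and 36.2 of the 70.9 and 82.3 TPM from coding transcripts of Fgfr2. Without it Fgfr2 would lie below Fgfr3 in both libraries, by gene TPM and by coding transcripts, and the share of Fgfr1 would be larger.

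The largest single transcript of Fgfr2 in the tables was Fgfr2-217, at 34.1 and 36.2 TPM, or 30.1% and 28.7% of the gene. Its annotation has 7 exons spread over chr7:130162451-133123350 with an intron of 2.91 Mb. Its last exons lie in Fgfr2 and hold the end of the kinase region, and it holds no exon for the extracellular part. It is listed as protein-coding and counts toward the Fgfr2 level given above, but not toward the exon shares that follow. No read-level evidence for its long junction was used here.

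Transcripts with the IIIc exon predominated over those with the IIIb exon in Fgfr1, Fgfr2 and Fgfr3. For Fgfr1, transcripts with IIIc summed to 102 and 114 TPM and those with IIIb to 2.03 and 1.60 TPM. IIIb therefore made up 1.67% ± 0.401 (SD, n = 2) of Fgfr1 transcripts that hold 1 of the exons. For Fgfr2, whose IIIb form is the epithelial receptor of Fgf7 and Fgf10, IIIc summed to 23.0 and 33.8 TPM and IIIb to 13.8 and 12.4 TPM, a IIIb share of 32.1% ± 7.49. For Fgfr3, IIIc summed to 47.2 and 68.4 TPM and IIIb to 15.4 and 13.1 TPM, a share of 20.3% ± 6.02. The IIIb share of Fgfr1 lay below those of Fgfr2 and Fgfr3 in each library (37.4% and 26.8% in Fgfr2, 24.6% and 16.0% in Fgfr3, 1.95% and 1.38% in Fgfr1). The shares of Fgfr2 and Fgfr3 did not overlap either, but by TPM over complete coding sequences the mean share of Fgfr2 was below that of Fgfr3 (17.9% and 21.5%).

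The Fgfr2 share rested on how its transcripts are listed. It was 23.5% by estimated counts and 17.9% over transcripts with a complete coding sequence, since several of the IIIb transcripts are incomplete in the annotation. Transcripts with neither exon made up 67.5% and 63.4% of the TPM of Fgfr2, 24.2% and 28.2% of Fgfr1 and 36.5% and 44.2% of Fgfr3. For Fgfr2 these included Fgfr2-217, the retained-intron transcript Fgfr2-221 (23.3 and 25.3 TPM) and Fgfr2-226, a candidate for nonsense-mediated decay that skips both exons (8.77 and 6.38 TPM). For Fgfr3 they included the retained-intron transcripts Fgfr3-205 (18.2 and 27.0 TPM) and Fgfr3-206 (16.2 and 35.5 TPM).

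**Figure D3:**
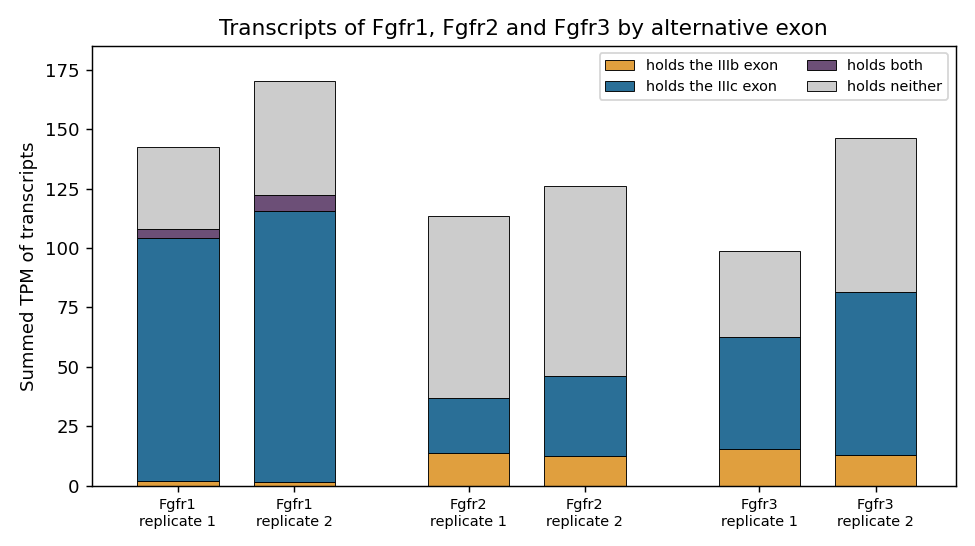
Summed TPM of the transcripts of Fgfr1, Fgfr2 and Fgfr3 in each library, stacked by whether they hold the IIIb exon (orange), the IIIc exon (blue), both (purple) or neither (grey). The IIIc part is larger than the IIIb part in every bar, and the part with neither exon is largest in Fgfr2.

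By summed TPM, transcripts with IIIb were lower in replicate 2 in all 3 genes, and transcripts with IIIc were higher there. By counts the same held for Fgfr2 and Fgfr3, but IIIb of Fgfr1 had 413 counts in replicate 1 and 463 in replicate 2. Fgfr2-211, the complete coding transcript of Fgfr2 with IIIb, was at 5.65 and 6.43 TPM and so did not share the direction of the IIIb sum. All 5 epidermal markers were lower in replicate 2 (summed 991 and 677 TPM, median log2 ratio -0.50), Trp63 by little (22.9 and 22.6 TPM). The 5 mesenchymal markers were higher there by counts with TMM scaling (median log2 ratio 0.43), Prrx1 by little (0.07). By TPM Prrx1 was slightly lower there (101.42 and 100.55 TPM). Esrp1 and Esrp2, splicing factors known to favour IIIb in epithelia and chosen here after their values were seen, were at 22.1 and 16.1 TPM and at 28.5 and 24.2 TPM. The part of the epidermal share in the exon shares was not tested.

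The receptors also vary in an exon upstream, which encodes the first immunoglobulin-like loop. This exon, looked at after the other results were known, is 267 nucleotides long in both genes and lies at chr8:25555508-25555774 in Fgfr1 and chr7:130242378-130242644 in Fgfr2. Among complete coding transcripts with IIIb or IIIc, those of Fgfr1 with the loop exon summed to 81.0 and 99.6 TPM and those without it to 23.2 and 16.2 TPM. In Fgfr2 the order was the opposite, with 5.65 and 10.9 TPM with the exon and 22.9 and 29.2 TPM without. The share with the exon was 81.9% ± 5.84 (SD, n = 2) in Fgfr1 and 23.4% ± 5.22 in Fgfr2, so the ranges of the 2 genes did not overlap. The Fgfr2 share rests on 3 transcripts, 1 with the exon and 2 without, out of a gene level of 113 and 126 TPM. Exons were read from M21, where 2 transcripts without the exon are longer than as deposited. These are Fgfr2-211 (4311 against 3053 nucleotides) and Fgfr1-203 (3789 against 3259). The 6 complete coding transcripts of Fgfr3 all hold their upstream exons over 200 nucleotides.

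All 9 feedback genes were detected, and they covered a narrow range. Spry1, a Sprouty inhibitor of receptor tyrosine kinase signalling (chr3:37639947-37644598, plus strand), led with 47.5 TPM in replicate 1 and 60.5 TPM in replicate 2. Spry2 was at 29.6 and 35.8 TPM and Spry4 at 15.9 and 21.8 TPM. Spry1 exceeded Spry2 by 1.65-fold (log2 ratio 0.72 ± 0.05, SD, n = 2) and Spry2 exceeded Spry4 by 1.75-fold (log2 ratio 0.81 ± 0.13). Both steps were past the 1.59-fold spread of genes at that level in each library. Spry4 had more counts than Spry2, at 5236 and 6628 against 4189 and 4640, so the order of these 2 genes holds per length of transcript.

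Dusp6, the phosphatase that removes the activating phosphates from ERK (chr10:99263231-99267488, plus strand), was at 39.9 and 51.1 TPM, 2.43 times Spry4 and past the spread. The ETS factors Etv5 (chr16:22381309-22439719, minus strand) and Etv4 (chr11:101769742-101785371, minus strand) were at 32.5 and 40.5 TPM and at 20.1 and 25.8 TPM. Etv5 was 1.59 times Etv4, past the spread in replicate 1 and within it in replicate 2. Coding transcripts gave 54.1% and 55.0% of the TPM of Etv4 and 99.8% and 100% of that of Etv5.

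The Spred proteins, membrane inhibitors of Ras that work with neurofibromin, were lower and close together. Spred2 was at 21.1 and 23.2 TPM, Spred1 at 19.6 and 18.3 TPM and Spred3 at 11.8 and 14.9 TPM. Spred1 was 0.857 times Spred2, within the spread. Of Spred3, 72.1% and 79.5% of the TPM came from its coding transcript.

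When the 24 genes that averaged 1 TPM or more were ordered by mean, 11 of the 23 neighbouring pairs did not overlap between libraries and 12 did. A like count over all genes is not given, so these numbers describe the 24 genes alone. Steps without overlap ran from Fgfr2 to Fgfrl1 to Spry1, Spry2 to Etv4, Spred2 to Spred1 and Spry4 to Fgf11. Others ran from Spred3 to Fgf13, Fgf7 to Fgf10, Fgf2 to Fgf9, and from Fgf9 down to Fgf12, Fgf16 and Fgf8. Of these, only the steps from Fgfrl1 to Spry1 and from Fgf9 to Fgf12 were past the spread of genes at like level in both libraries. All the others, among them Fgfr2 to Fgfrl1, Spred2 to Spred1 and Fgf7 to Fgf10, were within it. The place of Fgfr2 in this order also rests on counting Fgfr2-217 (34.1 and 36.2 TPM). Fgfr1, Fgfr3 and Fgfr2 overlapped as neighbours, as did Spry1, Dusp6, Etv5, Fgfr4 and Spry2 in turn. Overlap sets a gene in one library against its neighbour in the other. Within each library Fgfr1 lay above Fgfr3, and Spry1, Dusp6, Etv5, Fgfr4 and Spry2 kept their order. The neighbours that crossed between the libraries were Fgfr3 and Fgfr2, Etv4 and Spred2, Spred1 and Spry4, Fgf11 and Fgf18, and Fgf18 and Spred3. Of the 15 pairs compared by ratio, 8 were past the spread of genes at like level in both libraries, a count that describes these chosen pairs alone.

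The other genes of the pathway were almost all present. Of 57 listed genes, 54 were at 1 TPM or more in both libraries (94.7%), beside the 62.8% of protein-coding rows given above, and the 3 others were the Klotho co-receptors Kl (0.20 and 0.29 TPM) and Klb (0.09 and 0.03 TPM) and the AP-1 gene Fosl1 (0.05 and 0.07 TPM). Both the endocrine ligands and their Klotho co-receptors were thus below 1 TPM. Co-receptors and extracellular modulators were led by the heparan sulfate proteoglycan Gpc3 (607 and 694 TPM), the sulfatase Sulf2 (243 and 293 TPM) and the syndecan Sdc1 (221 and 268 TPM). All 10 genes of the adaptor and phospholipase group were detected, highest among them Shc1 (112 and 136 TPM), Plcg1 (109 and 123 TPM) and Grb2 (51.2 TPM in both libraries). All 11 genes of the Ras to ERK group were detected, with Araf (163 and 193 TPM) and Map2k2 (136 and 143 TPM) on top.

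Other negative regulators were detected in 9 of 9 cases. Lztr1, an adaptor for Ras degradation, was at 125 and 156 TPM, the ERK phosphatase Dusp7 at 108 and 147 TPM, and the Ras GTPase-activating gene Rasa1 at 48.1 and 37.8 TPM. Of the other ERK-responsive transcription factors 7 of 8 were detected, led by Myc (54.7 and 65.5 TPM), Elk3 (50.7 and 63.8 TPM) and Elk4 (25.0 and 21.9 TPM).

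**Figure D4:**
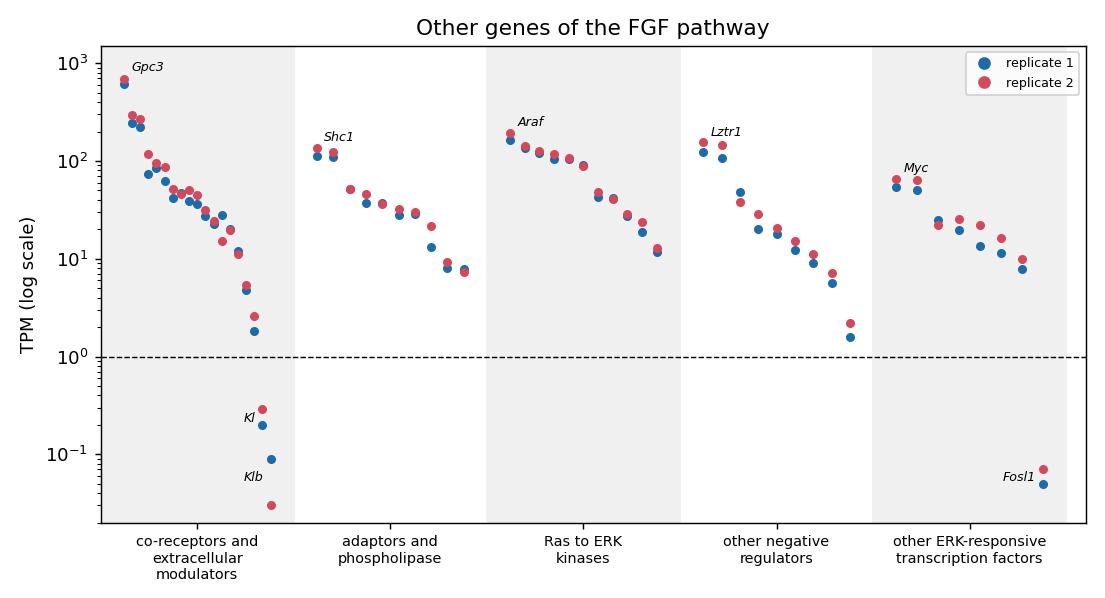
TPM on a log scale of the 57 other pathway genes in replicate 1 (blue) and replicate 2 (red), in 5 groups and ordered by mean within each, with a dashed line at 1 TPM. The highest gene of each group and the 3 genes under 1 TPM, Kl, Klb and Fosl1, are named.

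The differences between the libraries had a direction by role. In FGF genes that averaged 1 TPM or more they stayed under 1.5-fold, as in most protein-coding genes at that level. Past 1.5-fold between the libraries, by estimated counts with TMM scaling and over genes with at least 10 counts in total, stood 1 FGF gene higher in replicate 2 (Fgf14, 38 and 54 counts), against 6.45% of all 20379 genes. On the lower side stood 2 genes (Fgf20 with 25 and 11 counts and Fgf15 with 13 and 2), against 12.0% of all genes. All 3 had a mean below 1 TPM, and of the 24 FGF genes that averaged 1 TPM or more none passed 1.5-fold. Few did so at that level in general: of 13696 protein-coding rows averaging 1 TPM or more, 225 passed it higher and 817 lower.

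At any fold, 5 of 5 receptors were higher in replicate 2 (median log2 ratio 0.34), beside 49.4% of all genes. The largest was Fgfr3, at 0.43 on the log2 scale, and the smallest Fgfr2, at 0.17. Of the feedback genes 8 of 9 were higher there (median 0.34), from Spred2 at 0.19 to Spry4 at 0.45, with Spred1 at -0.07. Of the 7 secreted ligands that averaged 1 TPM or more, 6 were lower in replicate 2 (median -0.21), beside 50.6% of all genes. They ran from Fgf7 at -0.51 to Fgf9 at -0.01, and Fgf8 was at 0.28 on 49 and 55 counts. These counts by role were the same with DESeq2 size factors, with spike-in scaling and by the ratio of deposited TPM.

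The difference between the libraries also varied with base composition, which lined up with the roles only in part. Over all genes that averaged 1 TPM or more, the median log2 ratio of replicate 2 over replicate 1 was higher at higher GC content of the longest transcript, from -0.18 in the lowest GC quintile to 0.24 in the highest. The median GC content was 56.4% for the receptors, 51.2% for the feedback genes and 42.2% for the 7 ligands. That of the feedback genes fell in the middle quintile, whose median log2 ratio was -0.01. Fgf18, with 56.2% GC, was a ligand of high GC content that was lower in replicate 2. With the median of all genes in the same GC decile taken off, receptors were still higher in replicate 2 in 5 of 5 cases but by less (median 0.18), and feedback genes in 9 of 9 (median 0.26). Ligands were then lower in 4 of 7 cases (median -0.04), and they moved in different directions. Fgf18 (-0.45) and Fgf16 (-0.30) had lower ratios than before, and Fgf7 (-0.31) and Fgf2 (-0.04) higher ones. Fgf9 (0.19), Fgf10 (0.12) and, by very little, Fgf8 (0.0045) were higher in replicate 2. Epidermal markers were lower and mesenchymal markers higher in replicate 2, as given above. Past 1.5-fold lower in replicate 2 were also the muscle genes Tnnt3 (log2 ratio -1.60) and Myh3 (-0.80), the bone gene Ibsp (-0.74) and, of genes that a limb should lack, Alb (-2.39), Myh6 (-0.86) and Neurod1 (38 and 0 counts). Past 1.5-fold higher there were Prrx2 of mesenchyme (0.62), Sox9 of cartilage (0.63) and the lung gene Sftpc (1 and 13 counts). The other muscle markers lay between -0.07 and 0.43 and the other bone markers, Runx2 and Sp7, at 0.46 and 0.52. Of the 57 other pathway genes, 43 were higher in replicate 2 (median 0.16). What part each of these has in the differences by role was not tested.

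**Figure D5:**
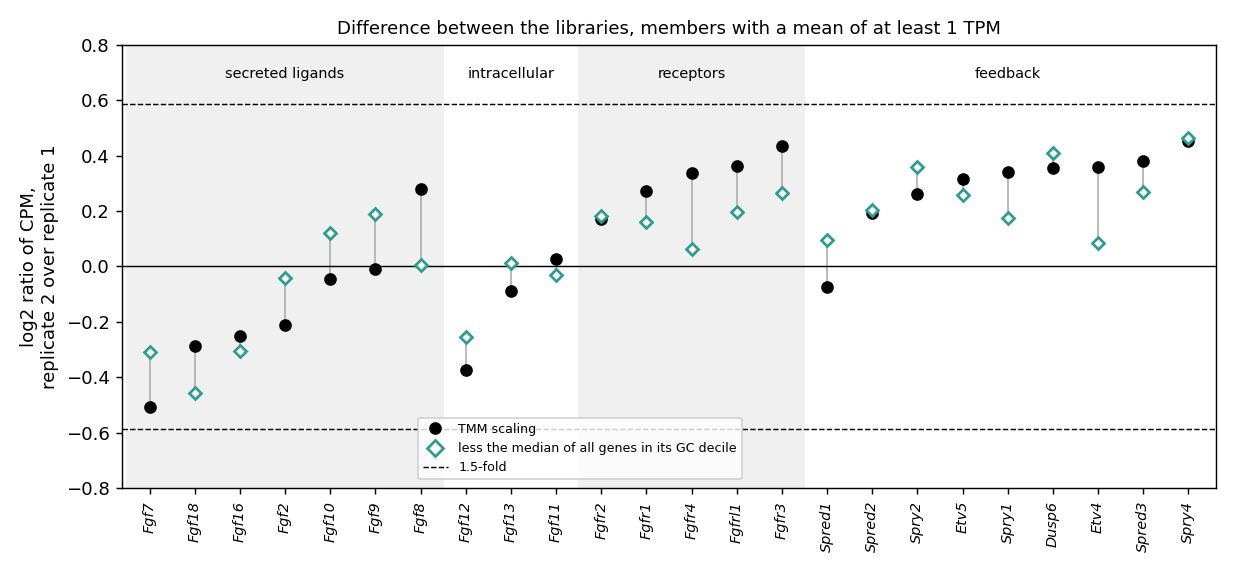
Log2 ratio of scaled counts (CPM), replicate 2 over replicate 1, of the 24 FGF genes that averaged 1 TPM or more, by role; black points use TMM scaling, and open green diamonds have the median of all genes in the same GC decile taken off. Dashed lines mark 1.5-fold, which no gene passes; the receptors lie above 0 on both scales, and 3 of the 7 secreted ligands lie above 0 once the GC median is taken off.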

How the data were processed

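Limb RNA above 200 nucleotides was read as stranded paired ends of 101 nucleotides, per the labels. The authors deposited a gene and a transcript table of each library, made on mm10 with GENCODE M4, per the text file beside them; no source used here names the program. The tables hold expected counts (the estimated number of reads of a gene or transcript), TPM and posterior mean TPM, the percent of each transcript in its gene, and effective lengths in nucleotides, per the file headers. Nothing was realigned.

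Names, biotypes, exons and coordinates came from GENCODE M21 (GRCm38), joined by stable identifier; 884 gene rows had no match, and rows of ERCC spike-ins, phiX and tRNA were not used. ERCC spike-ins took 2.39% and 2.36% and phiX 1.35% and 1.94% of counts in replicates 1 and 2. Of the 147 transcripts of the FGF genes, 129 have the same length in both annotations. Expected counts were whole (within 0.005) in both libraries for 35 of the 36 genes, Fgfr2 being the exception. A chi-square of counts over 20379 genes gave 127 per degree of freedom, so the 2 tables hold different libraries.

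A gene was detected where its TPM, as deposited, reached 1 in replicate 1 and in replicate 2. The difference between libraries was the log2 ratio of expected counts scaled by TMM factors, which were computed from rounded counts (edgeR 4.0.16 in R 4.3.3, prior count 0.5, at least 10 counts in total, factors 1.01 and 0.992), with DESeq2 1.42.0 size factors as an alternative. The calculation was tested on simulated counts that held counting error alone. Their folds were above the 1.5-fold threshold, in genes with more counts than the FGF genes that passed it. That test therefore does not bear on those FGF genes. Spread at like level was the 95th percentile of the absolute log2 TPM ratio of all genes in 4 level classes. IIIb and IIIc were found in the annotation as mutually exclusive exons with the same flanks. Exons were aligned globally (match 1, mismatch -1, gap opening -2 and extension -1).

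The genes, pathway groups, markers and pairs were chosen with earlier results of these data known, so they are described and not tested. By rule all FGF genes were named, and of each pathway group the 3 highest genes and those below 1 TPM; genes named outside this rule carry a remark, and some items are not reported here. Precision is limited by 2 libraries, and 0 counts were taken to allow 3 (0.0272 and 0.0290 CPM).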

Additional observations from a re-analysis of the deposited data

How the results depend on the processing

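With 2 libraries of 1 group every value rests on their spread, and depth limits the 12 genes with a mean below 1 TPM. No paired analysis was possible because there is only 1 group. The 23 FGF genes and 54 pathway genes detected stayed within 1.5 times under every alternative, from 20 to 26 and from 51 to 54, as did the median level (8.04 to 8.84 TPM by library, 8.71 in CPM). The 3 FGF genes past 1.5-fold became 14 at a lower fold threshold. The share of all genes past that lower threshold is not given here, so the 14 cannot be called many or few. Among genes averaging 1 TPM or more, 0 FGF genes were past 1.5-fold, by scaled counts (0) or by TPM (0). The 3 low genes are left out of that set by construction. Shares moved with the scale, since counts are not divided by length. By expected counts the shares were 44.4% for Fgfr1 among receptors, 8.91% for the Fgf1, 53.1% for the Fgf7, 18.6% for the Fgf8 and 14.2% for the Fgf9 subfamily, 1.03% for the endocrine ligands and 23.5% for IIIb in Fgfr2. Coding transcripts alone gave Fgfr1 39.6%, an alternative added after seeing the data like those with a minimum mean and the GC centring. Complete coding sequences alone gave IIIb 17.9% in Fgfr2. By posterior mean TPM the Fgf1, Fgf7 and Fgf8 subfamilies took 16.0%, 34.9% and 31.6%; the cause was not tested. Of the 15 pairs, 5 turned: in CPM, which ignores length, Fgf10 over Fgf7 (log2 0.96), Spry2 over Spry4 (-0.42) and Spred1 over Spred2 (0.30), by posterior mean TPM Fgf13 over Fgf11 (0.72), where the transcript Fgf13-204 with 0 counts is given 12.8 and 12.5 TPM, and without replicate 2 Fgfr2 over Fgfr3 (0.20, against -0.21 without replicate 1). With 1 library left out, the share that ranged most was IIIb in Fgfr2 (26.8% to 37.4%).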
